A study of Mus musculus with 11 samples.

Results

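Prostaglandins and leukotrienes are short-lived lipid messengers, the eicosanoids, that cells make from arachidonic acid. Cyclooxygenases turn the acid into prostaglandin H, from which terminal synthases form the single prostaglandins, and 5-lipoxygenase with its activating protein opens the route to the leukotrienes. After myocardial infarction (MI) these lipids are known to act on vessel tone, platelets and the entry of leukocytes. The 10 genes described here encode enzymes of both routes, of 55421 genes in the count table, and were taken from it by symbol. Of these, 5 belong to the prostaglandin route (Ptgs1, Ptgs2, Ptges, Ptgis, Ptgds) and 5 to the lipoxygenase and leukotriene route (Alox5, Alox5ap, Alox15, Ltc4s, Lta4h).

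Poly(A) RNA was sequenced from the hearts of 11 female wild-type C57BL/6J mice, 8 weeks old. In 8 mice the left anterior descending (LAD) artery was permanently tied to cause MI, and tissue of the infarct with its border zone was taken 3 days later. Of these, 4 mice (A116, A117, A119, A120) received the ADAM10 inhibitor GI254023X (A10i) at 100 mg/kg from an osmotic minipump, and 4 mice (A105, A127, A128, A129) received the solvent DMSO. The 3 Sham mice (S1, S2, S3) were operated without ligation, also received DMSO, and gave healthy heart tissue, on a day that the labels do not state. The question asked of these genes is how their transcripts differed after MI and whether they differed between inhibitor and solvent.

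Libraries held 21702623 to 29511768 counts. Levels are given as counts per 1000000 (CPM) of a library size scaled by TMM, so a transcript of 1 CPM rests on about 25 counts. A difference is a log2 fold change with its standard error from edgeR's quasi-likelihood test, and a gene was called higher or lower at an adjusted p under 0.01. Both comparisons with Sham use the same 3 Sham libraries, so their values are set side by side and are not independent. Cardiomyocyte markers were abundant, and 5 of them summed to 58300 to 60000 CPM in Sham mice, 28200 to 41300 CPM after MI with DMSO and 33900 to 45900 CPM with A10i. Myh6, the largest of them, averaged 38200, 16800 and 22000 CPM in these groups. Tnni3, Actc1 and Ryr2 also had lower means in both MI groups, whereas Tnnt2 averaged 6890, 7400 and 6790 CPM. In such bulk tissue, fewer cells of a type and less RNA per cell cannot be told apart.

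After MI with DMSO, 3 of the 10 genes were higher than in Sham (Ptgs2, Alox5ap and Ptgis) and 0 were lower, 6 were not called, and Alox15 had too few counts to be tested. Among all 17117 genes tested, 12.9% were called higher and 9.6% lower. With A10i the same 3 genes were called higher than in Sham and 0 lower, where 13.7% of 16971 genes were called higher and 9.11% lower. The median log2 fold change of the 9 tested genes was 0.47 with DMSO and 0.53 with A10i, and that of all genes tested was 0.00 and -0.01. All 3 calls remained in both comparisons without any single library.

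**Figure D1:**
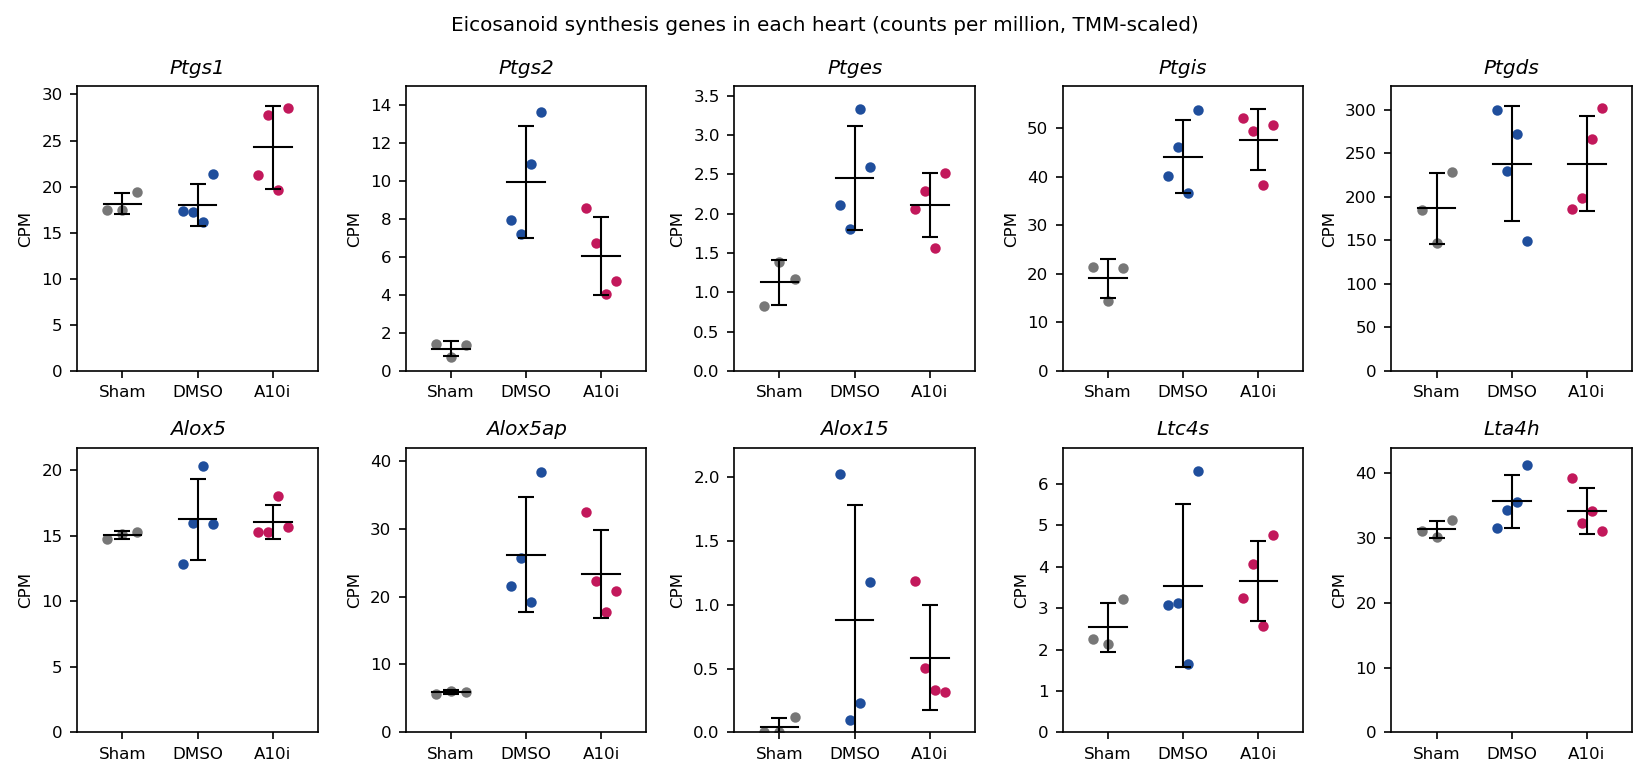
Level of each of the 10 genes in each heart, as CPM on a linear axis from 0. Each point is 1 mouse, long lines are group means and bars are the SD over 3 Sham, 4 DMSO and 4 A10i mice, with the lower bar of Alox15 ending at the axis. Ptgs2, Ptgis and Alox5ap lie above all Sham points in every MI heart, whereas Alox5, Lta4h and Ptgds overlap across the groups.

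Both cyclooxygenases carry out the same step, the oxygenation of arachidonic acid. Ptgs1 encodes the form that many tissues make at rest and Ptgs2 the inducible form, and here only Ptgs2 was called higher after MI. For that reason the sequence around their start sites is shown, from 170 bases before to 30 bases after the RefSeq transcript start (GRCm38.p6, the mm10 assembly, both on the plus strand, chr1:150099861-150100060 for Ptgs2 and chr2:36230256-36230455 for Ptgs1). Capitals mark matches to the motifs searched.
Ptgs2: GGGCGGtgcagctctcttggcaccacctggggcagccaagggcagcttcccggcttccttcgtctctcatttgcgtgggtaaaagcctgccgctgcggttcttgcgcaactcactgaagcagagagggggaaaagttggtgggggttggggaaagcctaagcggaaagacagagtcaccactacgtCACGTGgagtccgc
Ptgs1: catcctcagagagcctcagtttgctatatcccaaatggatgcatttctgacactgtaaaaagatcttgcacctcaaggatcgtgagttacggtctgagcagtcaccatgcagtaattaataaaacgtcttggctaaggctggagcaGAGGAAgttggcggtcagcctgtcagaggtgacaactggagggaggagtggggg

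The motifs searched on both strands, over 250 bases before to 50 bases after the start, were the TATA box TATAAA, the GC box GGGCGG, the cyclic AMP response element TGACGTCA, the E-box CACGTG and the ETS core GAGGAA. No matches overlapped in the windows printed, and TGACGTCA and CACGTG read the same on both strands. Only exact matches were counted, so variants of these motifs were not found, and positions depend on the RefSeq start used. Ptgs2 held GGGCGG at -170, CACGTG at 17 bases past the start and GAGGAA at -247, outside the printed stretch. Ptgs1 held GAGGAA at -24 and none of the other letters. Of 32851 RefSeq mouse promoters of the same length, 35.7% held GGGCGG, 7.15% CACGTG, 28.3% GAGGAA, 13.6% TATAAA and 1.79% TGACGTCA. The Ptgs2 window held 16 CpG and had 59.3% G and C, the Ptgs1 window 6 CpG and 50.7%, and the median promoter 7 CpG and 52.7%. A promoter was found for 7 of the 10 genes. Among the other 5 of these, GAGGAA was found in Ptges, Alox5, Ltc4s and Lta4h, and GGGCGG in Ptges and Alox5.

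Ptgs2 (ENSMUSG00000032487, mm10 chromosome 1, 150100031 to 150108227, plus strand) had the largest difference from Sham of the 9 genes tested. Its level was 1.43, 0.71 and 1.37 CPM in Sham mice S1, S2 and S3. In DMSO mice A105, A127, A128 and A129 it was 7.97, 7.20, 10.9 and 13.7 CPM, and in A10i mice A116, A117, A119 and A120 it was 8.60, 6.73, 4.04 and 4.77 CPM. Every MI heart lay above every Sham heart, and the 3 lowest MI hearts were A10i mice. The level was 8.51-fold higher with DMSO than in Sham (log2 3.09 ± 0.32 (SE), adjusted p = 0.000216 by edgeR, n = 4 and 3) and 5.21-fold higher with A10i (log2 2.38 ± 0.33 (SE), adjusted p = 0.000859 by edgeR, n = 4 and 3).

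Between the MI groups Ptgs2 averaged 6.04 ± 2.05 CPM (SD, n = 4) with A10i and 9.93 ± 2.95 CPM (SD, n = 4) with DMSO. The groups overlapped, since A116 lay above A105 and A127. The log2 difference of -0.71 ± 0.27 (SE) had an unadjusted p of 0.0249 and did not pass the adjustment (adjusted p = 0.282 by edgeR, 0.149 by DESeq2). The sum of 10 neutrophil markers, 9 of which had more than 3 counts in some library, was 1.12 to 2.21 CPM in Sham, 68.9 to 126 CPM in DMSO and 13.8 to 48.0 CPM in A10i mice. Of the MI hearts, A129 and A128 were highest in both Ptgs2 and this sum and A119 was lowest in both. S100a8, S100a9, Csf3r, Cxcr2 and Mmp8 were also highest in A129 and A128. Retnlg was not, at 3.37 CPM in A129 beside 3.61 CPM in A116. Ly6g, Camp, Ltf and Ngp, with at most 16 counts in any library, did not have this order either. The part of neutrophil number in the Ptgs2 values was not tested.

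Ptgs1 (ENSMUSG00000047250, chromosome 2, 36230426 to 36252272, plus strand) showed another order of the groups. It stood at 17.5, 17.5 and 19.4 CPM in Sham, at 17.4, 17.2, 16.2 and 21.3 CPM in DMSO, and at 21.2, 27.7, 19.6 and 28.5 CPM in A10i mice. Sham and DMSO hearts overlapped, all A10i hearts lay above all Sham hearts, and A10i overlapped DMSO through A119 and A116 below A129. The log2 difference was -0.01 ± 0.11 (SE) for DMSO over Sham (adjusted p = 0.944 by edgeR), 0.42 ± 0.14 (SE) for A10i over Sham (adjusted p = 0.0320 by edgeR) and 0.43 ± 0.14 (SE) for A10i over DMSO (unadjusted p = 0.0121, adjusted p = 0.227 by edgeR). None of these passed 0.01. The difference of A10i from Sham did so without A119 (0.52, adjusted p = 0.00881 by edgeR) and when libraries were scaled by their totals alone (0.61, adjusted p = 0.00625 by edgeR), and that scaling turned the DMSO difference to 0.20. The 5 epicardial and mesothelial markers summed to 23.9 to 37.4 CPM in Sham, 36.3 to 57.6 CPM in DMSO and 46.9 to 97.9 CPM in A10i mice. The sum was highest in A117 (97.9 CPM) and A120 (88.2 CPM), the mice with the highest Ptgs1. The 4 endothelial markers summed to 711 to 726, 555 to 673 and 677 to 771 CPM in Sham, DMSO and A10i mice. The part of these cells in the Ptgs1 values was not tested.

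The ratio of Ptgs2 to Ptgs1 counts within a heart does not depend on how libraries are scaled. It was 0.0828, 0.0417 and 0.0715 in Sham, 0.458, 0.419, 0.675 and 0.640 with DMSO, and 0.405, 0.243, 0.207 and 0.168 with A10i. The 3 groups did not overlap, with A116 closest to the DMSO mice. The log2 ratio differed by 3.10 between DMSO and Sham, by 1.95 between A10i and Sham and by -1.15 between A10i and DMSO. Each of these had an exact p of 0.02857 (permutation test, two-sided), the smallest that groups of this size allow, and an adjusted p of 0.06857 over the 12 tests made of 4 ratios. The difference between A10i and DMSO kept its sign without any single mouse, from -1.40 to -0.97. Among all 16792 genes compared between A10i and DMSO, 8.12% did not overlap between these groups, and of the 10 genes taken singly 0 did so. That share is of single genes. None was worked out for ratios of 2 genes, so how often such ratios separate the groups is not known.

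**Figure D2:**
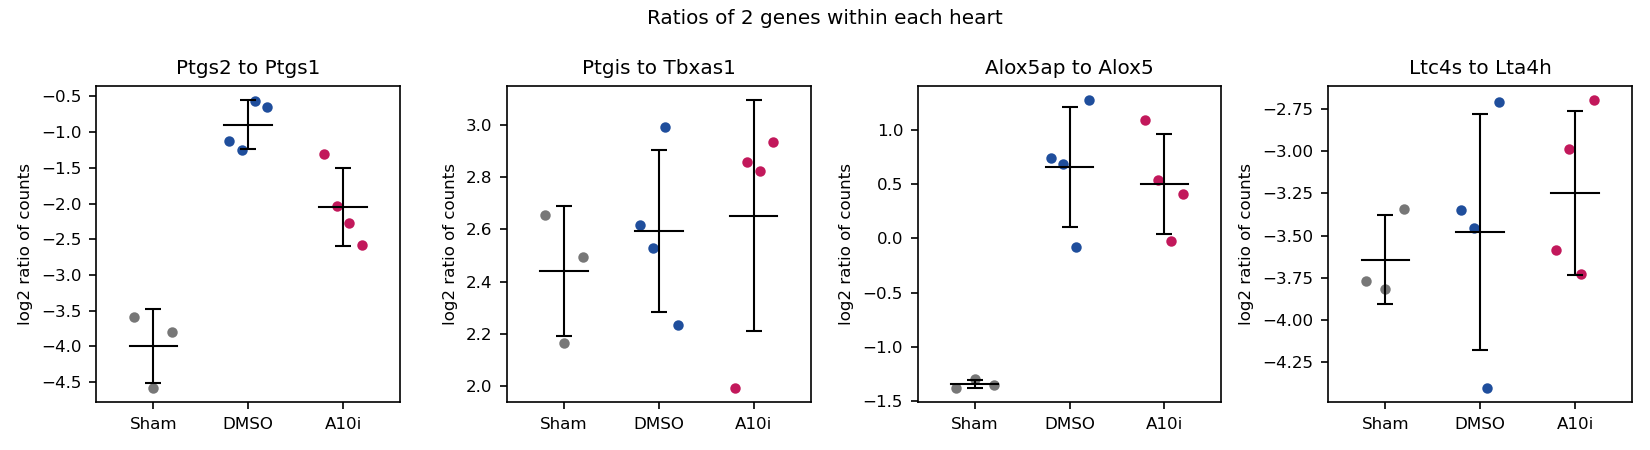
Log2 ratio of the counts of 2 genes within each heart (0.0 means equal counts). Points are mice, long lines group means and bars the SD. For Ptgs2 to Ptgs1 the DMSO mean is -0.90, the A10i mean -2.05 and the Sham mean -3.99, and for Alox5ap to Alox5 only Sham stands apart.

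**Figure D3:**
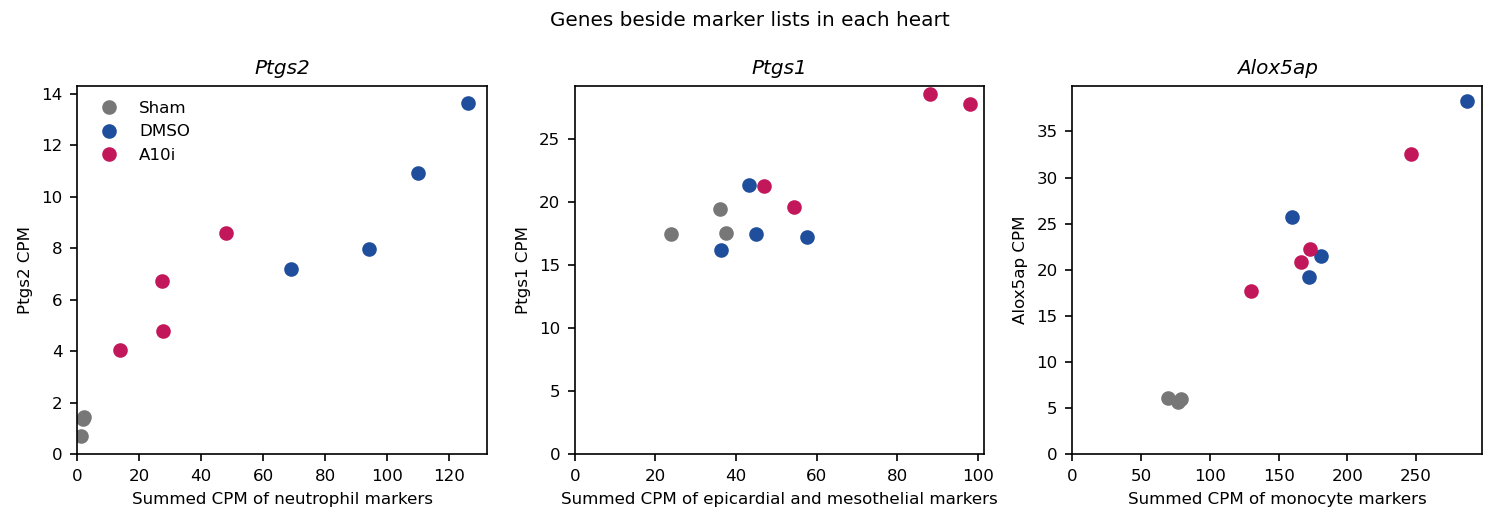
Level of Ptgs2, Ptgs1 and Alox5ap (CPM, vertical) beside the summed CPM of neutrophil, epicardial and mesothelial, and monocyte markers (horizontal) in each heart, coloured by group. Mice A128 and A129 are highest in Ptgs2 and in summed neutrophil markers, though A129 is not in the single markers Retnlg and Ly6g. A117 and A120 are highest in Ptgs1 and summed mesothelial markers, though A117 is not in the single marker Wt1. A129 and A116 are highest in Alox5ap and summed monocyte markers, though not in the single monocyte marker Ly6c2.

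Of the terminal prostaglandin synthases, Ptgis rose and Ptges and Ptgds did not pass the test. Ptgis (ENSMUSG00000017969, chromosome 2, 167191805 to 167240604, minus strand) encodes prostacyclin synthase, whose product widens vessels and restrains platelets. It stood at 21.4, 14.5 and 21.2 CPM in Sham, at 40.3, 46.1, 36.6 and 53.7 CPM in DMSO, and at 52.1, 49.5, 38.3 and 50.7 CPM in A10i mice. Every MI heart lay above every Sham heart and the MI groups overlapped. The increase over Sham was 2.32-fold with DMSO (log2 1.21 ± 0.17 (SE), adjusted p = 0.000931 by edgeR) and 2.51-fold with A10i (log2 1.33 ± 0.16 (SE), adjusted p = 0.000505 by edgeR), and A10i differed from DMSO by 0.11 ± 0.13 (SE, adjusted p = 0.760 by edgeR). An exon stretch of 156 bases is shared with 1110018N20Rik on the opposite strand, which had 68 to 203 counts per library, so a part of either gene's counts is uncertain. Exon overlaps of Ptgs1, Alox5ap and Ltc4s are with opposite-strand genes of at most 10 counts per library. The 5 fibroblast markers summed to 679 to 723 CPM in Sham, 873 to 2220 CPM in DMSO and 1950 to 3180 CPM in A10i mice. All 5 had higher means after MI, Col1a1 most (118, 849 and 1460 CPM) and Tcf21 little (7.55, 8.1 and 10.2 CPM). The 5 smooth muscle and pericyte markers summed to 908 to 959, 595 to 743 and 782 to 844 CPM. Of these, Rgs5 had lower means after MI (709, 368 and 442 CPM). Acta2 (114, 145 and 193 CPM) and Tagln (22.5, 49.1 and 70 CPM) had higher means. Myh11 (55.3, 51 and 66.6 CPM) and Cspg4 (39.1, 41.3 and 41.5 CPM) changed less. The part of these cells in the Ptgis values was not tested.

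The ratio of Ptgis to Tbxas1, the gene of thromboxane synthase, whose product opposes prostacyclin on vessels and platelets, was 6.30, 4.49 and 5.64 in Sham, 6.14, 5.77, 7.95 and 4.71 with DMSO and 3.98, 7.25, 7.07 and 7.64 in A10i mice. All groups overlapped. The log2 ratio differed by 0.15 between DMSO and Sham (exact permutation p = 0.4571), by 0.21 between A10i and Sham (exact permutation p = 0.4571) and by 0.06 between A10i and DMSO (exact permutation p = 0.8571), with adjusted values of 0.6857, 0.6857 and 0.8571. Tbxas1 itself stood at 3.21 to 3.75 CPM in Sham, 4.59 to 11.4 CPM in DMSO and 5.41 to 13.1 CPM in A10i mice, and narrowly missed the threshold in both comparisons with Sham (adjusted p = 0.0110 and 0.0115 by edgeR).

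Ptges (ENSMUSG00000050737, chromosome 2, 30889471 to 30929863, minus strand), the inducible microsomal prostaglandin E synthase that works with Ptgs2, was a weak transcript with 19 to 100 counts per library. It stood at 0.82, 1.38 and 1.17 CPM in Sham, at 2.11, 1.81, 3.32 and 2.59 CPM in DMSO, and at 2.06, 2.28, 1.57 and 2.52 CPM in A10i mice. No MI heart overlapped Sham. The log2 difference from Sham was 1.12 ± 0.28 (SE) with DMSO (adjusted p = 0.0116 by edgeR) and 0.90 ± 0.25 (SE) with A10i (adjusted p = 0.0170 by edgeR), both just outside the threshold. Without a filter on low counts both passed (adjusted p = 0.00313 and 0.00952 by edgeR), and the first also by DESeq2 (adjusted p = 0.00341). Between A10i and DMSO the difference was -0.22 ± 0.23 (SE, adjusted p = 0.726 by edgeR).

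Ptgds (ENSMUSG00000015090, chromosome 2, 25466709 to 25470046, minus strand), the lipocalin-type prostaglandin D synthase, had the highest level of the 10 genes. It stood at 185, 147 and 229 CPM in Sham, at 300.3, 230, 273 and 149.5 CPM in DMSO, and at 186, 199, 266 and 302 CPM in A10i mice. The groups overlapped widely, and the means of the MI groups were 238 ± 65.8 CPM (SD, n = 4) with DMSO and 238 ± 54.9 CPM (SD, n = 4) with A10i. The log2 difference from Sham was 0.34 ± 0.24 (SE) with DMSO (adjusted p = 0.269 by edgeR) and 0.35 ± 0.20 (SE) with A10i (adjusted p = 0.192 by edgeR). The 3 atrial markers summed to 10.2 to 24.3 CPM in Sham, 12.7 to 86.6 CPM in DMSO and 39.5 to 93.7 CPM in A10i mice. A129 and A116, the MI hearts with the lowest Ptgds, had the 2 highest of these sums, whose part in the Ptgds values was not tested.

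On the leukotriene route the gene of the activating protein rose, those of 3 enzymes did not pass the test, and Alox15 was not tested against Sham. Alox5ap (ENSMUSG00000060063, chromosome 5, 149264767 to 149288153, plus strand) encodes FLAP, the membrane protein that hands arachidonic acid to 5-lipoxygenase. It stood at 5.67, 6.13 and 6.01 CPM in Sham, at 21.5, 25.7, 19.3 and 38.3 CPM in DMSO, and at 32.5, 22.2, 17.7 and 20.9 CPM in A10i mice. Sham hearts were tightly grouped and every MI heart lay far above them, with the MI groups overlapping. It was 4.40-fold higher with DMSO (log2 2.14 ± 0.24 (SE), adjusted p = 0.000361 by edgeR) and 3.94-fold higher with A10i (log2 1.98 ± 0.20 (SE), adjusted p = 0.000307 by edgeR), and A10i differed from DMSO by -0.16 ± 0.24 (SE, adjusted p = 0.809 by edgeR).

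Alox5 (ENSMUSG00000025701, chromosome 6, 116410077 to 116461178, minus strand), encodes 5-lipoxygenase itself. Its level was 14.7, 15.1 and 15.3 CPM in Sham, 12.9, 15.9, 20.3 and 15.9 CPM in DMSO, and 15.3, 15.3, 18.0 and 15.7 CPM in A10i mice. The groups overlapped. The log2 difference from Sham was 0.11 ± 0.14 (SE) with DMSO (adjusted p = 0.563 by edgeR) and 0.10 ± 0.09 (SE) with A10i (adjusted p = 0.398 by edgeR). The sign of the first turned to -0.02 without A128.

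The ratio of Alox5ap to Alox5 counts was 0.386, 0.407 and 0.393 in Sham, 1.67, 1.61, 0.948 and 2.41 with DMSO, and 2.13, 1.45, 0.982 and 1.33 in A10i mice. Every MI heart lay above every Sham heart. The log2 ratio was higher than in Sham by 2.00 with DMSO and by 1.84 with A10i, each with the smallest exact permutation p of 0.02857 (adjusted p = 0.06857), and A10i differed from DMSO by -0.15 (exact permutation p = 0.6857, adjusted p = 0.7481). Beside these values, 5 monocyte markers summed to 69.4 to 78.7 CPM in Sham, 160 to 287 CPM in DMSO and 130 to 246 CPM in A10i mice, and 8 macrophage markers to 204 to 223, 294 to 468 and 401 to 661 CPM. A129 and A116 were the highest MI hearts in Alox5ap and in the monocyte sum. Of the single monocyte markers, F13a1 and Ccr2 were also highest in these mice. Chil3 was highest in A129 (98.3 CPM) but stood at 19.6 CPM in A116. Plac8 was highest in A116 and A105 (11 and 10.7 CPM), and Ly6c2 was lowest of the MI hearts in A129 (2.32 CPM). Leukocyte number was not tested as a part of the Alox5ap values.

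Lta4h and Ltc4s compete for the same intermediate, leukotriene A, which Lta4h turns into the neutrophil attractant leukotriene B and Ltc4s into the cysteinyl leukotrienes. Lta4h (ENSMUSG00000015889, chromosome 10, 93453411 to 93484875, plus strand) stood at 31.0, 30.2 and 32.8 CPM in Sham, at 31.5, 34.3, 35.5 and 41.3 CPM in DMSO, and at 39.2, 32.4, 34.1 and 31.0 CPM in A10i mice. The groups overlapped, with log2 differences from Sham of 0.18 ± 0.10 (SE) with DMSO (adjusted p = 0.171 by edgeR) and 0.13 ± 0.09 (SE) with A10i (adjusted p = 0.268 by edgeR).

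Ltc4s (ENSMUSG00000020377, chromosome 11, 50236461 to 50238616, minus strand) stood at 2.25, 2.13 and 3.22 CPM in Sham, at 3.08, 3.12, 1.66 and 6.32 CPM in DMSO, and at 3.25, 4.06, 2.56 and 4.77 CPM in A10i mice. DMSO hearts held both the lowest and the highest value. The log2 difference from Sham was 0.47 ± 0.40 (SE) with DMSO (adjusted p = 0.377 by edgeR) and 0.53 ± 0.24 (SE) with A10i (adjusted p = 0.107 by edgeR). The ratio of Ltc4s to Lta4h ranged from 0.0711 to 0.0988 in Sham mice, from 0.0473 to 0.153 with DMSO and from 0.0756 to 0.154 with A10i. Its log2 value differed by 0.16, 0.39 and 0.23 for DMSO over Sham, A10i over Sham and A10i over DMSO (exact permutation p = 0.6857, 0.2857 and 0.6286, adjusted 0.7481, 0.5714 and 0.7481). The 6 mast cell markers, cells known for Ltc4s, summed to 4.26 to 5.11 CPM in Sham, 2.00 to 3.79 CPM in DMSO and 3.26 to 7.15 CPM in A10i mice, with Ms4a2 at 0 to 2 counts in every library.

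Alox15 (ENSMUSG00000018924, chromosome 11, 70344152 to 70352031, minus strand), the leukocyte-type 12/15-lipoxygenase that also forms precursors of pro-resolving lipids, was close to the detection limit. It had 0, 0 and 3 counts in Sham, 48, 3, 7 and 30 counts with DMSO, and 30, 13, 8 and 7 counts in A10i mice. These are 2.02, 0.10, 0.23 and 1.18 CPM with DMSO and 1.19, 0.50, 0.33 and 0.31 CPM with A10i. The 3 MI hearts A105, A129 and A116 held most of the counts, and A127 had no more than S3. The gene did not pass the filter against Sham. Without the filter its adjusted p was 0.169 with DMSO and 0.000829 with A10i (edgeR), and DESeq2 gave 0.00215 and 0.00213. Between A10i and DMSO it was tested, with a log2 difference of -0.53 ± 0.80 (SE, adjusted p = 0.817 by edgeR), which turned to 0.28 without A105. The 5 platelet markers, 4 of which had more than 3 counts in some library, summed to 11.3 to 14.2 CPM in Sham, 29.7 to 62.2 CPM in DMSO and 24.5 to 57.8 CPM in A10i mice, and were highest in A129, A116 and A105. Pf4 and Ppbp were highest in the same mice. Gp9 was not, at 0.353, 0.357 and 0.422 CPM in A129, A116 and A105 beside 0.773 CPM in A117. Itga2b was 3.88 CPM in A116, below 3.96 CPM in A119. The 4 eosinophil markers summed to 0.0403 to 0.224, 0.299 to 1.45 and 0.0413 to 0.714 CPM, with Epx at 1 count in A105 and 0 counts elsewhere. Most of the sum in DMSO mice was Siglecf, which averaged 0.0518, 0.706 and 0.177 CPM in Sham, DMSO and A10i mice. Ccr3 (0.0249, 0.0294 and 0.114 CPM) and Prg2 (0.0403, 0.028 and 0.0742 CPM) had at most 4 counts in any library and their highest means with A10i. The 6 body cavity macrophage markers, some of them shared with endothelium, summed to 99.9 to 110 CPM in Sham, 145 to 277 CPM in DMSO and 139 to 234 CPM in A10i mice. Of these, Prg4 stood at 8.26 to 12.9 CPM in Sham, 51.9 to 166 CPM in DMSO and 33.5 to 136 CPM in A10i mice. Selp also had higher means after MI (0.276, 10.9 and 5.02 CPM in Sham, DMSO and A10i mice), and Naip1 was at most 1.53 CPM. Gata6 (72.2, 70.8 and 68.1 CPM) and Icam2 (19.6, 20 and 22.1 CPM) changed little. Timd4 had lower means after MI (2.32, 1.43 and 1.82 CPM). The higher sum was thus not shared by all 6 markers. The part of platelets, eosinophils and cavity macrophages was not tested.

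Levels of different genes were compared only per kilobase of exon. Ptgds was first in each group, at 113 ± 24.8 CPM per kb in Sham, 144 ± 39.9 with DMSO and 144 ± 33.3 with A10i (SD, n = 3, 4 and 4). In Sham, Ptgis followed with 7.42, then Lta4h with 5.14, Ptgs1 with 4.67, Alox5ap with 4.18, Alox5 with 3.66, Ltc4s with 2.50, Ptges with 0.286, Ptgs2 with 0.255 and Alox15 with 0.0164 CPM per kb. Of these neighbours, Lta4h and Ptgs1 overlapped between hearts, as did Ptges and Ptgs2. In DMSO mice Alox5ap stood second with 18.4 and Ptgis next with 17.2 CPM per kb, which overlapped, and in A10i mice their order was the other way round, with 16.4 and 18.6. Ptgs2 was eighth in both MI groups, at 2.17 ± 0.644 CPM per kb with DMSO and 1.32 ± 0.448 with A10i, below Ptgs1 at 4.64 ± 0.586 and 6.25 ± 1.16. The order depends on the exon model: per kilobase of the longest transcript, among other moves, Lta4h came ahead of Ptgis in Sham and of Ptgs1 in A10i mice.

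**Figure D4:**
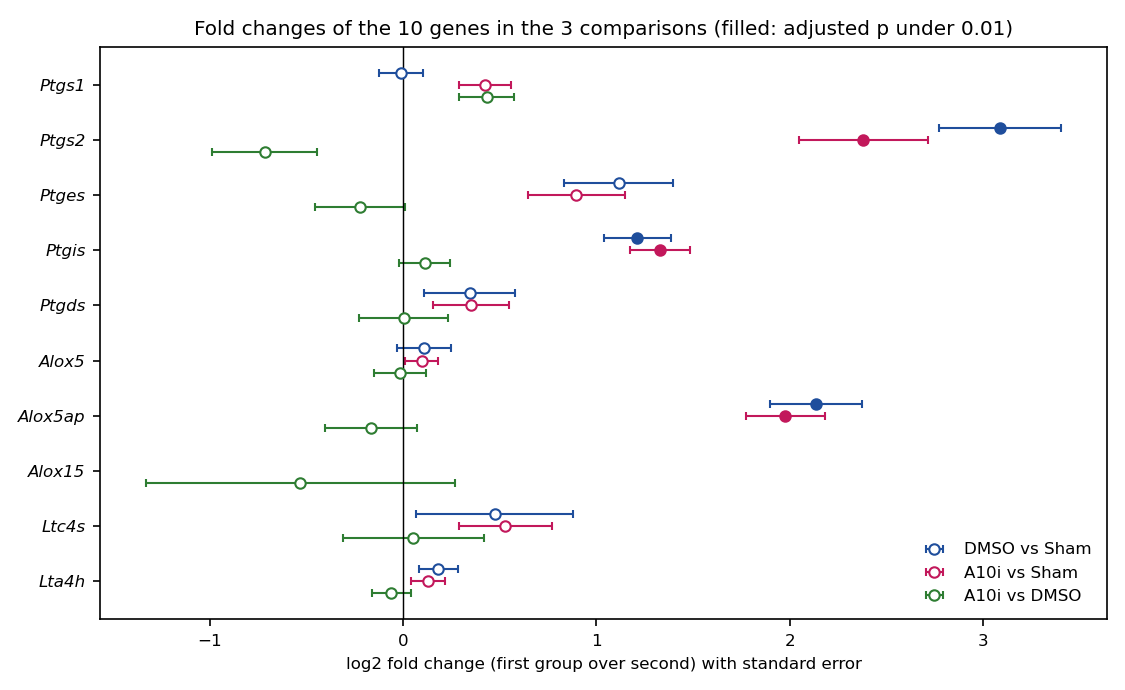
Log2 fold change (horizontal, with SE) of each gene in the 3 comparisons, with filled points for an adjusted p under 0.01. Filled points are those of Ptgs2, Ptgis and Alox5ap over Sham, from 1.21 to 3.09, and no point of A10i over DMSO is filled. Alox15 was not tested against Sham.

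Between A10i and DMSO, 0 of the 10 genes passed an adjusted p of 0.01 by edgeR, as did 0% of all 16792 genes tested. DESeq2 called 231 of 17508 genes, 0 of them among the 10, and limma-voom called 0. At an unadjusted p under 0.05 there were 2 of the 10, Ptgs1 with a positive and Ptgs2 with a negative difference, beside 13.8% of all genes. This count fell to 1 without A128, A129, A119 or A120. The median log2 difference of the 10 genes was -0.04 and that of all genes 0.00.

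For Ptgs2, Ptgis and Alox5ap, the genes most alike in pattern were sought among 17466 genes by the root mean square (RMS) difference of centred log2 CPM over the 11 libraries. Nearest to Ptgs2 were Pdpn (RMS 0.208), which encodes podoplanin, Has2 (0.25), a hyaluronan synthase, and Csf2rb (0.263), a cytokine receptor subunit. Pdpn averaged 4.80, 34.4 and 22.2 CPM in Sham, DMSO and A10i mice. Nearest to Ptgis were Slc9a3r1 (0.117), Gpx1 (0.153), which encodes a glutathione peroxidase, and Rab11fip1 (0.154). Nearest to Alox5ap were Ncf1 (0.0755), a subunit of the phagocyte NADPH oxidase, Lrrc25 (0.0847) and Fxyd5 (0.113). Ncf1 averaged 6.49, 29.5 and 26.0 CPM in Sham, DMSO and A10i mice. These genes were picked for their likeness over the same 11 libraries, so a shared order of groups follows from the choice.

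Around these enzymes, 49 other genes of eicosanoid release, synthesis, removal and reception were listed. Against Sham, 36 were tested with DMSO, of which 9 were higher and 5 lower, and 34 with A10i, of which 8 were higher and 3 lower. Among all genes tested, 12.9% were higher and 9.6% lower with DMSO, and 13.7% higher and 9.11% lower with A10i. Their median log2 fold change was 0.11 and 0.15. The counts rest on the small Sham group: without S1, S2 or S3 they fell from 14 to 4 or 5 with DMSO and from 11 to 4 or 5 with A10i. Calls over all genes fell in the same fits, from 2215 higher and 1643 lower to 1523 to 1542 in all with DMSO, and from 2333 higher and 1546 lower to 1620 to 1714 in all with A10i.

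**Figure D5:**
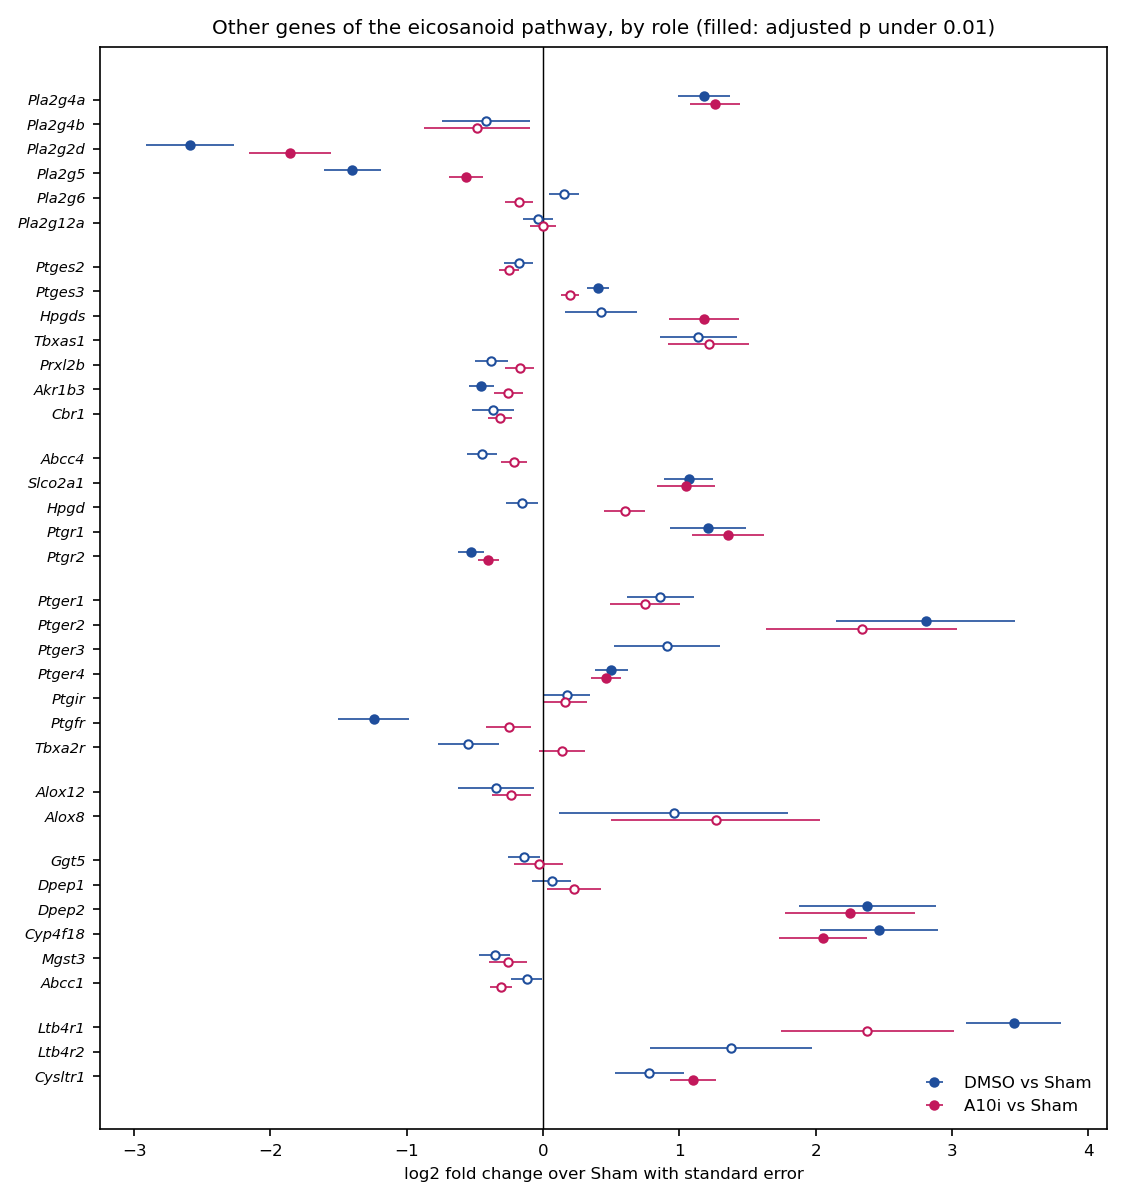
Log2 fold change over Sham (horizontal, with SE) of the tested pathway genes other than the 10, in blocks from top to bottom of phospholipases, other prostaglandin synthases, removal, prostaglandin receptors, other lipoxygenases, leukotriene conversion and leukotriene receptors. Filled points passed an adjusted p of 0.01. Ltb4r1 with DMSO is highest at 3.45 and Pla2g2d with DMSO lowest at -2.59. Both rest on few counts in 1 group, 6 to 8 per Sham library for Ltb4r1 and 3 to 7 per DMSO library for Pla2g2d.

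Phospholipases, which free arachidonic acid from membranes, moved both ways. Of 11 listed, 6 were tested, and in both comparisons 1 rose and 2 fell. Pla2g4a, the cytosolic enzyme that selects arachidonic acid, stood at 4.37, 4.19 and 5.16 CPM in Sham, 8.78 to 14.1 CPM in DMSO and 9.16 to 14.7 CPM in A10i mice. It rose by 1.18 ± 0.19 and 1.26 ± 0.18 (log2, SE; adjusted p = 0.00146 and 0.000786 by edgeR). Its call with DMSO ended without S1 or S2 (adjusted p = 0.0106 and 0.0109 by edgeR). Secreted Pla2g5 was at 46.3, 43.7 and 41.1 CPM in Sham, 18.8, 20.1, 17.9 and 9.54 CPM in DMSO and 23.8, 27.5, 30.1 and 36.5 CPM in A10i mice. The 3 groups did not overlap, and Pla2g5 was lower than in Sham by -1.40 ± 0.21 with DMSO and -0.57 ± 0.12 with A10i (log2, SE; adjusted p = 0.00132 and 0.00619 by edgeR). Pla2g2d, at 1.05 to 1.20 CPM in Sham, was at 0.126 to 0.235 CPM in DMSO and 0.180 to 0.396 CPM in A10i mice (log2 -2.59 and -1.86, adjusted p = 0.000428 and 0.00130 by edgeR). It was a weak transcript, with 26 to 32 counts in Sham and 3 to 10 counts in MI libraries. Pla2g2d thus passed the count filter through its Sham libraries, and it was not tested between A10i and DMSO. The call of Pla2g5 with A10i ended in 7 of 15 alternatives, among them 1 fit of all 11 libraries (adjusted p = 0.0561), scaling by library totals (log2 -0.38, adjusted p = 0.0230), and the fits without A117, A119 or any single Sham mouse. With DMSO it ended without a filter (adjusted p = 0.0115).

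Of the 7 other prostaglandin synthases, all tested, Ptges3 rose with DMSO (log2 0.40 ± 0.08 (SE), adjusted p = 0.00408 by edgeR) and Akr1b3, an aldose reductase with prostaglandin F synthase activity, fell (log2 -0.45 ± 0.09 (SE), adjusted p = 0.00440 by edgeR). With A10i, Hpgds, the hematopoietic prostaglandin D synthase, rose from 3.26 to 3.40 CPM in Sham to 5.53 to 11.7 CPM (log2 1.18 ± 0.26 (SE), adjusted p = 0.00618 by edgeR), with 2.61 to 6.33 CPM in DMSO mice. Apart from fits that left out a Sham mouse, the Akr1b3 call ended with scaling by library totals (log2 -0.25, adjusted p = 0.0907), that of Ptges3 without A127, and that of Hpgds by limma-voom (adjusted p = 0.0108) and in 1 fit of all libraries (adjusted p = 0.0129). Among the 5 genes of prostaglandin export, uptake and breakdown, the uptake carrier Slco2a1 rose by 1.07 and 1.05 and the reductase Ptgr1 by 1.21 and 1.36 on the log2 scale with DMSO and A10i, whereas Ptgr2 fell by 0.53 and 0.40 (adjusted p from 0.0017 to 0.00758 by edgeR over the 6 tests). Scaling by library totals ended both calls of Ptgr2 (log2 -0.32 and -0.22, adjusted p = 0.0215 and 0.0225). Likewise, the call of Ptgr1 with DMSO ended by limma-voom (adjusted p = 0.0122) and without A127 or A128, and that of Slco2a1 with A10i without a filter (adjusted p = 0.0167) and without A116 or A120.

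Of 9 prostaglandin receptors listed, 7 and 6 were tested. With DMSO, Ptger2 and Ptger4, receptors of prostaglandin E, rose by 2.81 ± 0.66 and 0.50 ± 0.12 (log2, SE), and the prostaglandin F receptor Ptgfr fell by 1.24 ± 0.26 (adjusted p = 0.00845, 0.00882 and 0.00532 by edgeR). Ptger2 was a weak transcript, at 0.0748 to 0.282 CPM in Sham and 0.548 to 2.08 CPM in DMSO mice. With A10i, Ptger4 was called (log2 0.46 ± 0.11 (SE), adjusted p = 0.00842 by edgeR). Both calls of Ptger4 ended in 8 of 15 alternatives, including the omission of any single Sham mouse, of any A10i mouse, and of 3 of the 4 DMSO mice. That of Ptger2 ended in 6 of 14, among them limma-voom (adjusted p = 0.0136) and the fit without A127. For Ptgfr it ended in 4 of 15, with scaling by library totals (log2 -1.03, adjusted p = 0.0187) and without A129 among them. Ptgdr had 0 counts in every library. The 5 other lipoxygenases gave 2 tested genes, Alox12 and Alox8, and 0 calls.

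Of 8 genes of leukotriene conversion and breakdown, 6 were tested and 2 rose in both comparisons. Dpep2, a dipeptidase that acts on cysteinyl leukotrienes, rose by 2.38 ± 0.50 with DMSO and 2.25 ± 0.48 with A10i (log2, SE; adjusted p = 0.00504 and 0.00459 by edgeR). It was a weak transcript, with 4 to 7 counts in Sham and 15 to 57 counts in MI libraries. Cyp4f18, which oxidises leukotriene B in neutrophils, rose by 2.46 ± 0.44 and 2.06 ± 0.32 (log2, SE; adjusted p = 0.00261 and 0.00116 by edgeR). Among 4 leukotriene receptors, Ltb4r1, the high-affinity receptor of leukotriene B on leukocytes, was at 0.224 to 0.322 CPM in Sham, 3.20, 2.65, 1.99 and 4.16 CPM in DMSO and 2.62, 1.74, 0.784 and 0.450 CPM in A10i mice. It rose with DMSO (log2 3.45 ± 0.35 (SE), adjusted p = 0.000177 by edgeR), and with A10i its difference of 2.38 ± 0.63 missed the threshold (adjusted p = 0.0160 by edgeR), but passed it by DESeq2 (adjusted p = 0.000913) and without A119 or A120. Cysltr1 was called higher with A10i (log2 1.10 ± 0.17 (SE), adjusted p = 0.000980 by edgeR) and not with DMSO (log2 0.78 ± 0.25 (SE), adjusted p = 0.0329 by edgeR), although it passed narrowly without a filter (adjusted p = 0.00987). The calls of Dpep2 ended by limma-voom (adjusted p = 0.0105 and 0.0114) and without any single Sham mouse. The call of Cyp4f18 with DMSO also ended without any single Sham mouse (adjusted p from 0.0139 to 0.0161 by edgeR), whereas that with A10i held in all 15 alternatives.

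Between A10i and DMSO, 34 of the 49 pathway genes were tested and 0 were called by edgeR, while DESeq2 called 2, Hpgd and Ptgfr. At an unadjusted p under 0.05 there were 5 with a higher and 3 with a lower value in A10i mice, beside 13.8% of all genes tested in either direction. Hpgd, which inactivates prostaglandins, stood at 8.85, 10.2, 8.88 and 7.89 CPM with DMSO and 12.1, 16.6, 12.8 and 18.6 CPM with A10i. Its groups did not overlap, and Sham mice lay between 9.31 and 10.5 CPM. The log2 difference was 0.75 ± 0.15 (SE, adjusted p = 0.0931 by edgeR and 0.00238 by DESeq2). Ptgfr stood at 2.23, 4.86, 4.89 and 4.16 CPM with DMSO and 6.94, 8.01, 7.72 and 9.53 CPM with A10i, with a log2 difference of 0.99 ± 0.23 (SE, adjusted p = 0.112 by edgeR and 0.00352 by DESeq2). Its Sham mice lay between 7.14 and 11.4 CPM.

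The other differences between A10i and DMSO at that level were 0.83 ± 0.22 for Pla2g5, 0.75 ± 0.30 for Hpgds, 0.68 ± 0.21 for the thromboxane receptor gene Tbxa2r, -0.33 ± 0.11 for Pla2g6, -0.21 ± 0.08 for Ptges3 and -1.08 ± 0.46 for Ltb4r1 (log2, SE; adjusted p from 0.157 to 0.335 by edgeR). Of these, Pla2g5, Tbxa2r and Pla2g6 did not overlap between the MI groups, nor did 8.12% of all genes tested. Adipocyte, lymphoid and red blood cell lists were also summed, since such cells can enter heart samples. The 4 adipocyte markers reached 3.10 CPM in Sham mice, 4.22 with DMSO and 14.2 with A10i, 5 lymphoid markers 1.04, 1.18 and 1.19 CPM, and 5 red blood cell transcripts ranged from 591 to 1300, from 232 to 3700 and from 1050 to 5020 CPM. A117, with 14.2 and 5020 CPM, was highest in the adipocyte and red cell lists, and held the second highest Ptgs1 and Hpgd. Their part in the results was not tested.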

How the data were processed

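Poly(A) RNA of 11 mouse hearts was sequenced as strand-specific libraries. The authors aligned read pairs to mm10 with GSNAP and assigned the uniquely placed ones to Ensembl genes with featureCounts 2.0.1. The strand setting of the counting is not given in the sources used here, so genes that overlap on opposite strands are uncertain. The deposited table holds raw counts per gene in 55513 rows, of which 92 spike-in rows (397 counts in all) were left out. Symbols came from GENCODE, for all but 267 genes, as did the lengths of the longest transcripts, and promoters came from RefSeq. Positions and exon lengths of genes were those deposited with the counts. Totals per library were 21702623 to 29511768. Between replicates the chi-square over its degrees of freedom was 4.04 to 60.8, above counting error, and mitochondrial transcripts took 14.8 to 22.2%.

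Groups came from the sample titles. Each comparison was fitted on the libraries of its 2 groups with edgeR 4.0.16 in R 4.3.3 (filterByExpr, TMM, two-sided quasi-likelihood F-test with robust settings), and p-values were adjusted by Benjamini-Hochberg over all genes tested, at a threshold of 0.01. Ratios were compared as log2 of counts plus 0.5 by exact permutation over mice, two-sided. DESeq2 1.42.0, limma-voom (limma 3.58.1), other scalings, other filters, a joint fit and the omission of each library were alternatives. The tests were tried on simulated counts, and in the comparisons of DMSO with Sham, A10i with Sham and A10i with DMSO edgeR called 70, 82 and 84 of 100 genes changed 2-fold and 100 of 100 changed 4-fold, over 17043, 16882 and 16782 genes. Smaller changes were not simulated. Every simulated gene had the same dispersion between mice, and the changed genes lay above a floor of mean counts. The shares recovered are therefore not the power of the tests in these hearts.

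All 10 genes are named. Of the 49 other pathway genes, up to 3 per list with the largest change among those called against Sham are named, with each at an unadjusted p under 0.05 between A10i and DMSO, and Tbxas1 as part of a ratio. For called genes of the 10 with a log2 change of 1 or more, the 3 most similar genes are given. The 10 genes, the other lists and the markers of 16 cell types were chosen with earlier results of these data known. Values of single genes are relative to the total and cannot give amounts per cell.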

Additional observations from a re-analysis of the deposited data

Results flagged for a closer look

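In each group of 4 mice the highest or lowest value was checked for its gap to the nearest other mouse, as a share of the group's range, against Dixon's limit, for 29 genes and 4 ratios, which makes 66 groups. Chance alone marks about 1 in 20 such groups, and 7 of 66 were marked. Alox5 in A10i mouse A119 was 18.0 CPM, against 15.3 to 15.7 CPM in the other 3. In DMSO mouse A129, Pla2g4a was 14.1 CPM against 8.78 to 9.58 CPM, Dpep2 was 2.24 CPM against 0.765 to 0.938 CPM, and Cysltr1 was 7.57 CPM against 3.79 to 4.42 CPM. In A10i mouse A116, Cyp4f18 was 6.54 CPM against 3.01 to 3.52 CPM, Cysltr1 was 7.89 CPM against 5.45 to 5.72 CPM, and the ratio of Ptgis to Tbxas1 was 3.98 against 7.07 to 7.64. A129 and A116 were also the 2 mice with the highest sums of monocyte markers, at 287 and 246 CPM, and of platelet markers, at 62.2 and 57.8 CPM. Not every marker of these lists had that order. Ly6c2 was lowest of the MI hearts in A129 (2.32 CPM), and Gp9 lowest of the A10i mice in A116 (0.357 CPM). The part of these cells in the values was not tested.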

How the results depend on the processing

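The calls of Ptgs2, Ptgis and Alox5ap over Sham held in direction and threshold under all 15 alternatives each, with adjusted p-values of at most 0.00543. The number of the 10 genes called was 5 for DMSO over Sham by DESeq2, and 5 for A10i over Sham at an adjusted p under 0.05, with scaling by library totals alone, and with no filter. With scaling by totals the median log2 difference of all genes over Sham was 0.208 (DMSO) and 0.181 (A10i), against 0.0021 and -0.0054 with TMM, and 9 of the 10 genes then had an unadjusted p under 0.05 for A10i over Sham. Pathway genes called numbered 20 for A10i over Sham at an adjusted p under 0.05, and 2 for A10i over DMSO by DESeq2. Signs turned for log2 differences near 0: Ptgs1 (DMSO over Sham) to 0.20 with library totals and 0.0015 with at least 10 counts in every library, Ptgds (A10i over DMSO) to -0.0028 with DESeq2's size factors, -6.3e-05 with library totals, -0.0029 with no filter and -0.0027 by DESeq2, and Alox15 (A10i over DMSO) to 0.13 by limma-voom. The cause of these turns was not tested.

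Without 1 library at a time, pathway genes called ranged from 4 to 15 (DMSO over Sham) and from 4 to 13 (A10i over Sham), and genes of the 10 with an unadjusted p under 0.05 from 5 to 8 (A10i over Sham) and from 1 to 2 (A10i over DMSO). Log2 differences that turned sign ranged over Sham, with DMSO, from -0.10 to 0.041 for Ptgs1 and from -0.015 to 0.19 for Alox5. For A10i over DMSO they ranged from -1.13 to 0.28 for Alox15, from -0.17 to 0.13 for Ptgds, from -0.18 to 0.49 for Ltc4s, from -0.11 to 0.11 for Alox5, from -0.36 to 0.077 for Alox5ap and from -0.13 to 0.018 for Lta4h. Log2 ratios did so from -0.080 to 0.49 (Ltc4s to Lta4h), from -0.061 to 0.28 (Ptgis to Tbxas1) and from -0.40 to 0.053 (Alox5ap to Alox5) for A10i over DMSO, and from -0.093 to 0.47 (Ltc4s to Lta4h) for DMSO over Sham. No paired analysis was possible because mouse names carry no number shared between groups. Counts of Alox15 and Ptges were too low to resolve small differences, and bulk tissue gives no cell type.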
